A study of Mus musculus with 9 samples.

Results

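Betaine pretreatment followed by homocysteine thiolactone (HTL) was compared with HTL alone in HT-22 cells, an immortalized mouse hippocampal line. The members are the 11035 of 21352 listed genes whose mean over the 6 libraries compared was at least 0.5 FPKM (fragments scaled by gene length and library size). The question was which secreted factors, receptors, transporters and transcription factors differed between the groups. In the betaine plus HTL group, 3 libraries came from cells given 10 mM betaine for 4 h and then 2 mM HTL for 24 h. In the HTL group, 3 libraries came from cells given 2 mM HTL for 24 h. A further 3 libraries came from control cells labelled WT, and what these received is not given in the sources used here. All cells grew in DMEM with serum, antibiotics and non-essential amino acids. No betaine-only library was analysed here, so what betaine does without HTL and what it does to the HTL response cannot be told apart.

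HTL is a reactive cyclic thioester that forms from homocysteine and acylates lysine residues of proteins. Betaine is a compatible osmolyte and, in liver and kidney, the methyl donor with which betaine-homocysteine methyltransferase turns homocysteine into methionine. Secreted factors and their receptors carry signals between cells, membrane transporters set what a cell takes up and releases, and transcription factors pass such signals on to genes. Amino acid carriers are a known target of ATF4, a transcription factor translated under amino acid shortage and other stresses.

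The libraries held 33295131 to 39452715 reads on listed genes, recovered from the steps of the FPKM values. The labels do not state whether replicate libraries are separate cultures. The p-values therefore rest on differences among libraries that may be technical. In these bulk libraries fewer cells of one kind and less RNA per cell cannot be told apart. Of 8 neuronal markers in the table, 2 (Tubb3 and Dlg4) averaged 0.5 FPKM or more across all 9 libraries, and the defining neuronal genes Rbfox3, Map2 and Mapt reached at most 0.00208, 0.412 and 0.0122 FPKM in the 6 libraries. Of 4 astrocyte markers none averaged that much. Among microglial markers 1 of 4 did (Tmem119), and the list summed to 5.38 to 6.32 FPKM in betaine plus HTL and 8.17 to 8.82 FPKM in HTL, with Aif1, Cx3cr1 and Csf1r all below 0.2 FPKM. Among oligodendrocyte lineage markers 1 of 3 did (Cspg4), with sums of 7.57 to 7.76 FPKM in betaine plus HTL and 5.53 to 5.98 FPKM in HTL, and Mbp near 0. Among endothelial markers 1 of 5 did (Flt1), with sums of 2.12 to 2.53 FPKM in betaine plus HTL and 2.81 to 2.86 FPKM in HTL. The fibroblast list had 3 of 6 (Vim, Col1a1 and Pdgfra), with sums of 862.6 to 888.6 FPKM in betaine plus HTL and 897.0 to 919.2 FPKM in HTL. Most of each sum was Vim, which reached 792 FPKM. The fibroblast markers Col1a2, Lum and Dcn reached at most 0.199, 0.0126 and 0.649 FPKM in the 6 libraries, so the list was split. The part of these marker differences in the results was not tested.

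Many genes differed, by small amounts. At an adjusted p below 0.05 (limma on log2(FPKM + 1), all 9 libraries in the fit, Benjamini-Hochberg adjustment over all genes tested) 3873 of 11035 genes (35.1%) were called. Of these, 1600 (14.5% of genes tested) were higher and 2273 (20.6%) were lower in betaine plus HTL. Called changes had a median absolute log2 fold change of 0.19. A change of at least 2-fold on the log2(FPKM + 1) scale was called for 3 higher and 3 lower genes. Other called genes passed 2-fold only in the ratio of mean FPKM, such as Enpp2 (2.69) and Egr1 (0.393). The share of calls that were higher was 41.3% as deposited, 51.9% after quantile normalization and 55.3% with median-of-ratios size factors, so the balance between rises and falls over all genes depends on the scaling. In 5261 genes (47.7%) the 3 libraries of one group did not overlap the 3 of the other. Fold changes below are on the log2(FPKM + 1) scale with the standard error of the fit, and they understate the change of low genes.

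Secreted factors, receptors and transporters held a larger share of calls than all genes tested, and transcription factors a smaller one. Among 204 tested secreted factors 54 were higher and 46 lower, 49.0% in all, against 35.1% of all genes tested. Among 228 receptors 57 were higher and 48 lower (46.1%). Among 331 transporters 74 were higher and 71 lower (43.8%). Among 794 transcription factors 136 were higher and 89 lower (28.3%). The Zfp and Zbtb zinc finger genes made up 343 of the 794, with only 30 higher and 22 lower (15.2%). The smaller share of the class rests on these zinc finger genes, and that of its other members was not below 35.1%. The median log2 fold changes were 0.02, 0.01, -0.01 and 0.01 for the 4 classes in that order, against -0.02 for all genes tested, and that of the transporters was 0.02 after either rescaling. Rises made up 26.5%, 25.0%, 22.4% and 17.1% of the 4 classes in that order, against 14.5% of all genes tested. Falls made up 22.5%, 21.1%, 21.5% and 11.2%, against 20.6%. In secreted factors, receptors and transporters the larger share of calls thus lay mainly in rises, with falls near the share of all genes. These shares are as deposited, and the balance over all genes depends on the scaling. Each class held rises and falls, and the family counts below are to be read beside 14.5% and 20.6%.

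**Figure D1:**
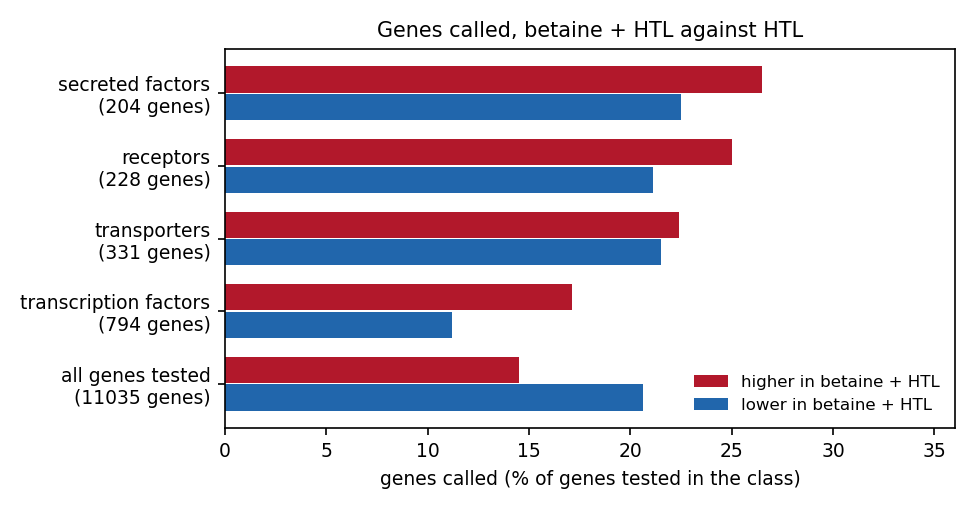
Share of tested genes called higher (red) or lower (blue) in betaine plus HTL against HTL, in % of the genes tested in each class, with all 11035 tested genes in the lowest row. Secreted factors, receptors and transporters had 43.8% to 49.0% of their genes called, transcription factors 28.3%, and all genes 35.1%.

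Secreted factors changed in a mixed pattern in which 5 of 8 VEGF and PDGF ligands and 5 of 11 chemokines were higher, and 5 of 9 matricellular proteins were lower. By summed level, the 476 listed secreted factor genes came to 10076, 9941 and 9948 FPKM in the betaine plus HTL libraries, against 9063, 8988 and 9111 FPKM in the HTL libraries and 8346, 8359 and 8451 FPKM in the control libraries. The 25 listed chemokine genes made up 4060, 3877 and 3897 FPKM of this in betaine plus HTL, against 3116, 3123 and 3242 FPKM in HTL. Most of the summed difference between these groups thus lay in chemokines. The sum follows a few abundant genes and does not show a rise across the class.

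The largest rise was that of Prl2c2 (Entrez 18811, chromosome 13, 12996120 to 13005393), which encodes proliferin, a placental hormone of the prolactin family also made by growing mouse cell lines. Its level was 326, 336 and 311 FPKM in the betaine plus HTL libraries, against 116, 112 and 118 FPKM in the HTL libraries and 82.6, 83.7 and 77.5 FPKM in the control libraries. That is a 2.81-fold ratio of means (log2 fold change 1.48 ± 0.04, adjusted p = 1.00e-09). The groups were far apart, but Prl2c2 has near-identical copies, so how reads were shared among them is uncertain. The listed copy Prl2c3 had 1.32, 1.67 and 1.44 FPKM in betaine plus HTL and 0.634, 0.293 and 0.471 FPKM in HTL. It was not called, but every betaine plus HTL library lay above every HTL library, so this copy cannot be read as unchanged.

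Chemokines, which attract leukocytes, were called in 8 of 11 tested genes, with 5 higher and 3 lower. Ccl5 (chromosome 11, 83525778 to 83530518), an attractant of T cells and monocytes, had 101, 101 and 93.5 FPKM in betaine plus HTL, against 52.6, 50.5 and 49.3 FPKM in HTL (log2 fold change 0.94 ± 0.04, adjusted p = 1.04e-07). Control libraries held more of it than either, at 130.0, 131 and 144 FPKM. Cxcl10, the interferon-inducible ligand of CXCR3, had 162, 165 and 162 FPKM in betaine plus HTL, 103, 104 and 108 FPKM in HTL and 74.9, 74.9 and 77.2 FPKM in control (log2 fold change 0.64 ± 0.03, adjusted p = 3.29e-08 against HTL). The 3 groups of Cxcl10 values did not overlap and betaine plus HTL was the highest. Ccl2, a monocyte attractant and the most abundant of the chemokines, had 2066, 2050 and 2010 FPKM in betaine plus HTL and 1535, 1534 and 1565 FPKM in HTL (log2 fold change 0.40 ± 0.02, adjusted p = 5.12e-07). Ccl7 (0.31 ± 0.05) and the membrane-anchored Cx3cl1 (0.40 ± 0.04) were the other chemokines that rose.

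Cxcl12, the ligand of CXCR4 and ACKR3, moved the other way. It had 27.1, 27.6 and 26.5 FPKM in betaine plus HTL, against 44.3, 44.6 and 45.8 FPKM in HTL and 17.1, 17.6 and 16.8 FPKM in control (log2 fold change -0.71 ± 0.03, adjusted p = 3.95e-08). Betaine plus HTL thus lay between the other groups, with no overlap. Ccl8 (-0.54 ± 0.10) and the neutrophil attractant Cxcl5 (-0.22 ± 0.03) also fell. The neutrophil attractant Cxcl1, with 372, 372 and 372 FPKM in betaine plus HTL and 380.2, 377 and 398 FPKM in HTL, was not called (adjusted p = 0.138).

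VEGF and PDGF ligands, which act on endothelial and mesenchymal receptor tyrosine kinases, were higher in 5 of 8 tested genes and lower in none, with a median log2 fold change of 0.32. Vegfa, the main angiogenic growth factor, had 49.6, 48.1 and 54.4 FPKM in betaine plus HTL, against 30.4, 30.7 and 34.1 FPKM in HTL and 29.1, 27.4 and 28.1 FPKM in control (log2 fold change 0.66 ± 0.05, adjusted p = 4.37e-06). Vegfc, the lymphangiogenic member, had 6.33, 5.33 and 5.84 FPKM in betaine plus HTL and 3.03, 3.5 and 2.99 FPKM in HTL (log2 fold change 0.71 ± 0.09, adjusted p = 0.000131). For both genes every betaine plus HTL library lay above every other library. The PDGF ligands Pdgfb (0.43 ± 0.08), Pdgfc (0.39 ± 0.03) and Pdgfa (0.25 ± 0.05) rose as well. Vegfb, Vegfd and Pgf had fold changes of -0.02, 0.02 and 0.06 and were not called, so the rise covered some ligands of the family and not others. Of 5 tested FGF ligands none was higher and 2 were lower, Fgf10 (-0.38 ± 0.05) and Fgf11 (-0.34 ± 0.07).

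Angiopoietins act on the endothelial receptor TIE2. Angpt1, its activating ligand, had 8.71, 9.002 and 8.31 FPKM in betaine plus HTL, against 15.4, 16.2 and 16.4 FPKM in HTL and 10.4, 10.3 and 10.6 FPKM in control (log2 fold change -0.81 ± 0.04, adjusted p = 9.74e-08), the largest fall among the genes listed here as secreted factors. Angptl2, an angiopoietin-like protein that does not bind TIE2, had 3.74, 4.002 and 3.65 FPKM in betaine plus HTL and 2.35, 1.94 and 2.18 FPKM in HTL (log2 fold change 0.61 ± 0.06, adjusted p = 1.65e-05). Both of these groups lay far below the control libraries, which had 13.3, 14.5 and 13.6 FPKM of Angptl2.

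Among cytokines 6 of 13 tested genes were higher and 2 lower. Csf1, the macrophage growth factor, had 168, 173 and 178 FPKM in betaine plus HTL and 128, 129 and 129.9 FPKM in HTL (log2 fold change 0.42 ± 0.02, adjusted p = 5.12e-07). Il15 (0.33 ± 0.05), Clcf1 (0.19 ± 0.06), Lif (0.16 ± 0.06) and Mif (0.08 ± 0.03) rose by less. The alarmin Il33 and the epithelial cytokine Tslp fell, with log2 fold changes of -0.50 ± 0.07 and -0.41 ± 0.09. Il33 had 0.953, 1.04 and 0.763 FPKM in betaine plus HTL and 1.64, 1.79 and 1.69 FPKM in HTL, so both groups were at low levels.

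Growth factor binders, hormones and TGF-beta ligands went both ways. Of 3 tested IGF-binding proteins 2 were higher and 1, Igfbp4, was lower (-0.34 ± 0.06). Of 9 peptide hormones and prolactin family genes 3 were higher and 2, Metrn (-0.18 ± 0.04) and Apln (-0.14 ± 0.04), were lower. Of 9 TGF-beta superfamily ligands 1 was higher and 2, Bmp4 (-0.50 ± 0.09) and Gdf11 (-0.14 ± 0.04), were lower, with a median of -0.13. Igfbp7, a secreted binder of insulin-like growth factors, had 34, 33.3 and 34.9 FPKM in betaine plus HTL and 22.3, 22.6 and 21.7 FPKM in HTL (log2 fold change 0.60 ± 0.03, adjusted p = 1.28e-07). Stc2, stanniocalcin 2, had 15.02, 15.6 and 15.6 FPKM in betaine plus HTL, against 9.66, 10.2 and 11.1 FPKM in HTL and 10.2, 11.2 and 9.51 FPKM in control (log2 fold change 0.54 ± 0.06, adjusted p = 5.26e-05). Gdf15, a hormone of cell stress that acts on appetite centres, had 7.12, 6.19 and 7.17 FPKM in betaine plus HTL and 4.67, 3.99 and 4.57 FPKM in HTL (log2 fold change 0.53 ± 0.07, adjusted p = 0.000264). In Stc2 and Gdf15 the HTL and control libraries overlapped, and the betaine plus HTL libraries stood above both. The neurotrophic factor Artn was higher (0.36 ± 0.06), while Manf, a secreted protein of the endoplasmic reticulum stress response, fell to 136, 128 and 130.1 FPKM in betaine plus HTL, against 182, 176 and 174 FPKM in HTL (log2 fold change -0.43 ± 0.03, adjusted p = 2.49e-06).

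Matricellular proteins, which modulate how cells meet the matrix, were lower in 5 of 9 tested genes and higher in 1. Ccn5, also called WISP2, had 30.9, 30.2 and 31.9 FPKM in betaine plus HTL, against 50.8, 50.2 and 49.7 FPKM in HTL (log2 fold change -0.68 ± 0.03, adjusted p = 5.92e-08). Thbs2, thrombospondin 2, an inhibitor of angiogenesis, had 6.73, 6.91 and 7.32 FPKM in betaine plus HTL and 10.7, 11.2 and 10.4 FPKM in HTL (log2 fold change -0.56 ± 0.05, adjusted p = 9.71e-06). Spp1, osteopontin, was the most abundant of them, with 409, 395 and 386 FPKM in betaine plus HTL and 556, 555 and 550.5 FPKM in HTL (log2 fold change -0.48 ± 0.02, adjusted p = 1.95e-07). Sparc (-0.20 ± 0.03) and Thbs1 (-0.19 ± 0.03) fell by less. For all 5 of these genes the betaine plus HTL libraries lay below the HTL libraries. They had been picked as called lower, and the groups did not overlap in 47.7% of all genes tested. The remaining largest falls among secreted factors were the Wnt modulator Dkk3, with 1.01, 0.877 and 1.21 FPKM in betaine plus HTL and 2.29, 1.89 and 2.17 FPKM in HTL, and the protease inhibitor Serpinb1a, which acts mainly inside cells (log2 fold change -0.60 ± 0.03, adjusted p = 1.28e-07).

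Among 20 metalloproteinases and their inhibitors 6 were higher and 7 lower, and both matrix metalloproteinases and ADAMTS proteases went both ways. The membrane-bound collagenase Mmp14 (0.22 ± 0.04), Mmp28 (0.39 ± 0.08), Mmp11 (0.24 ± 0.05), Adamts7 (0.19 ± 0.06), Adamts14 (0.19 ± 0.07) and Adamts9 (0.17 ± 0.04) rose. Mmp16 (-0.46 ± 0.06), Mmp19 (-0.42 ± 0.05), the inhibitors Timp1 (-0.18 ± 0.03), Timp2 (-0.10 ± 0.03) and Timp3 (-0.26 ± 0.05) and the aggrecanases Adamts5 (-0.51 ± 0.04) and Adamts1 (-0.28 ± 0.06) fell. Among 14 tested collagens 5 were higher and 5 lower, with a median of -0.01.

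**Figure D2:**
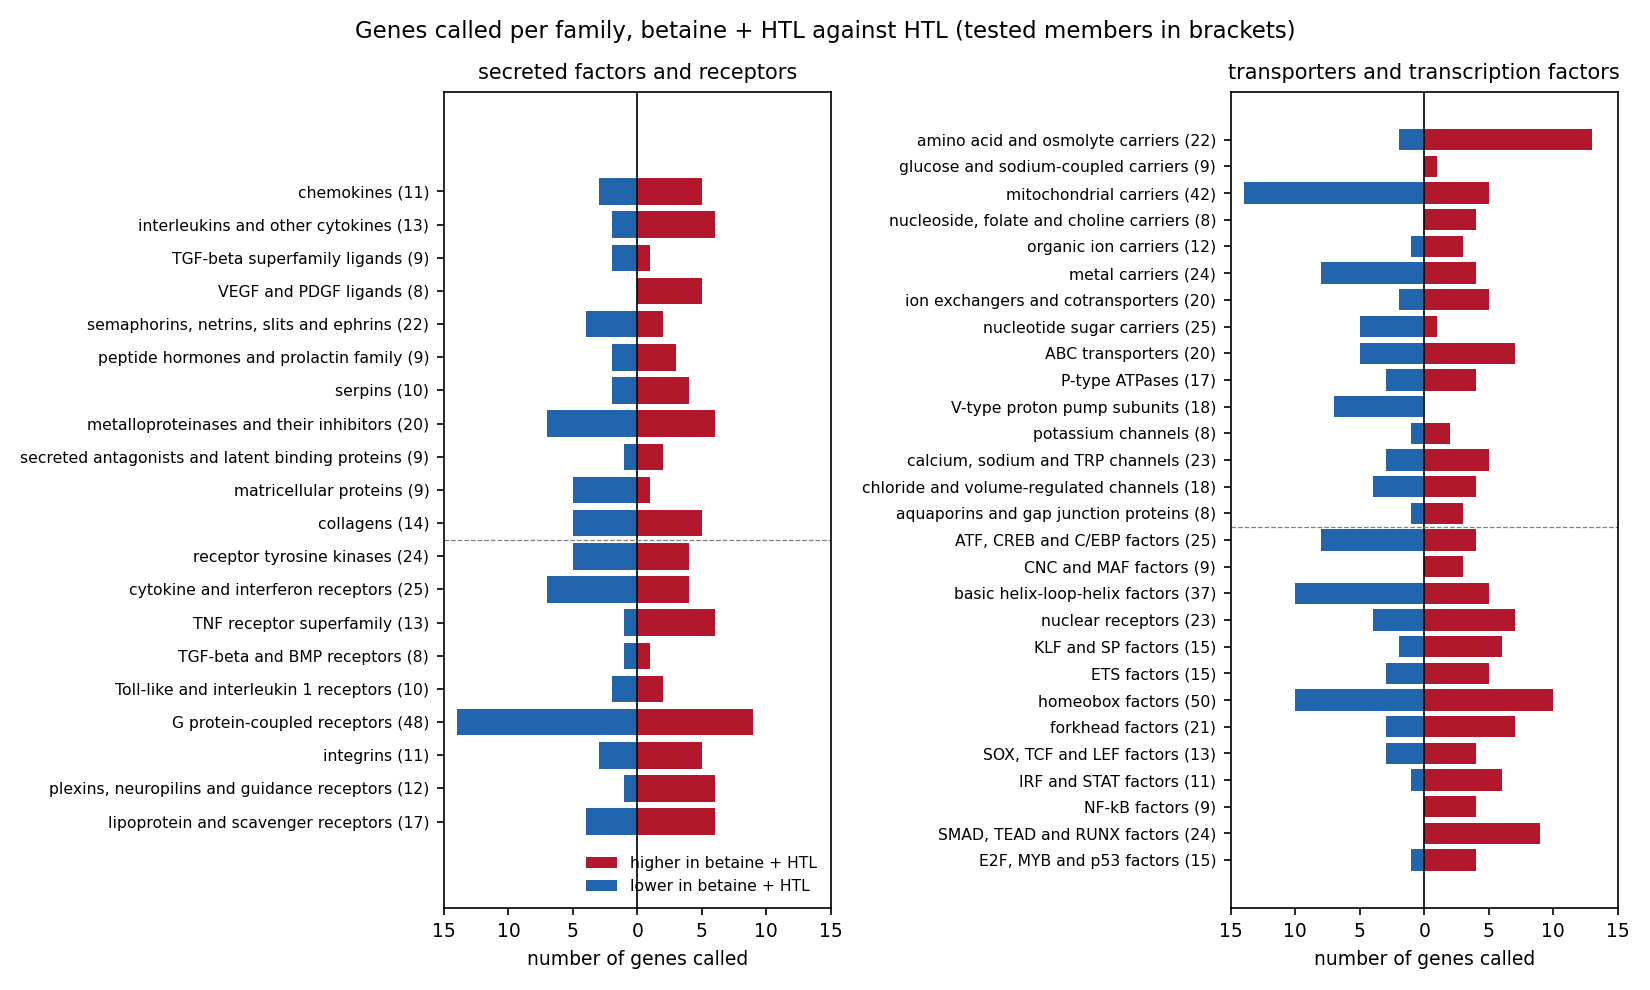
Number of genes called higher (red, right) and lower (blue, left) in betaine plus HTL against HTL in each family with at least 8 tested members, which stand in brackets (Zfp and Zbtb zinc finger genes not drawn). VEGF and PDGF ligands (5 higher, 0 lower) and amino acid carriers (13 higher, 2 lower) lean to rises, and V-type proton pump subunits (0 higher, 7 lower) to falls.

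Receptors for the ligands above were read as levels, since a secreted factor can act on its own source only where its receptor is made. Ackr3, an atypical receptor of Cxcl12, had 10.5, 11.5 and 10.6 FPKM in betaine plus HTL and 11.7, 12.4 and 11.1 FPKM in HTL and was not called (adjusted p = 0.167). Cxcr4, Cxcr3, Kdr, Tek, Csf1r, Gfra3 and Ret, the signalling receptors of Cxcl12, Cxcl10, Vegfa, Angpt1, Csf1 and Artn, reached at most 0.158 FPKM in any of the 9 libraries. Pdgfra, the receptor for Pdgfa and Pdgfc, stood at 5.27, 5.36 and 5.30 FPKM in betaine plus HTL and 4.82, 4.85 and 5.22 FPKM in HTL, and it was not called (adjusted p = 0.181). Pdgfrb, the receptor for Pdgfb, fell to 6.54, 6.82 and 6.68 FPKM in betaine plus HTL, against 9.73, 9.51 and 9.03 FPKM in HTL and 6.78, 6.798 and 6.76 FPKM in control (log2 fold change -0.44 ± 0.04, adjusted p = 1.09e-05).

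Neuropilins are co-receptors for VEGF and class 3 semaphorins, and the pair moved in opposite directions. Nrp2 (chromosome 1, 62703317 to 62818692), the partner of Vegfc, had 38.8, 40.6 and 41.03 FPKM in betaine plus HTL, against 25.4, 24.9 and 23.2 FPKM in HTL and 38.2, 37.96 and 38.8 FPKM in control (log2 fold change 0.69 ± 0.04, adjusted p = 1.97e-07). Nrp1, the partner of Vegfa, had 0.913, 0.807 and 0.743 FPKM in betaine plus HTL, against 1.45, 1.45 and 1.36 FPKM in HTL and 1.48, 1.4 and 1.395 FPKM in control (log2 fold change -0.41 ± 0.06, adjusted p = 0.000234). Flt1, a decoy-like VEGF receptor, had 2.08, 2.42 and 2.35 FPKM in betaine plus HTL and 2.72, 2.75 and 2.74 FPKM in HTL (log2 fold change -0.19 ± 0.05, adjusted p = 0.015). Among the 12 tested plexins, neuropilins and guidance receptors 6 were higher and Nrp1 alone was lower, with a median of 0.13. The semaphorin receptor Plxnd1 (0.31 ± 0.05) was among the 6.

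The TNF receptor superfamily, whose members signal to NF-kB or to cell death, was higher in 6 of 13 tested genes and lower in 1. Eda2r, a p53-inducible receptor of ectodysplasin A2, had 2.38, 2.24 and 2.44 FPKM in betaine plus HTL, against 1.34, 1.36 and 1.199 FPKM in HTL and 1.304, 1.496 and 1.18 FPKM in control (log2 fold change 0.54 ± 0.06, adjusted p = 7.94e-05). Fas, the death receptor of Fas ligand, had 58.6, 61.8 and 59.03 FPKM in betaine plus HTL, against 48.1, 48.2 and 48.9 FPKM in HTL and 18.8, 18.6 and 18.01 FPKM in control (log2 fold change 0.30 ± 0.03, adjusted p = 2.37e-05). Tnfrsf21 (0.39 ± 0.06), Tnfrsf1b (0.32 ± 0.04) and Tnfrsf9 (0.22 ± 0.03) rose too, while Tnfrsf12a, the receptor of TWEAK, fell (-0.20 ± 0.04). Its ligand Tnfsf12 was lower as well (-0.26 ± 0.05).

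Innate and cytokine receptors went both ways. Tlr2, a sensor of bacterial lipopeptides, had 50.2, 51.5 and 51.5 FPKM in betaine plus HTL, against 37.04, 35.8 and 36.8 FPKM in HTL and 22.9, 21.7 and 23.2 FPKM in control (log2 fold change 0.47 ± 0.03, adjusted p = 1.05e-06). The interferon gamma receptor chain Ifngr1 (0.18 ± 0.03) and the Il33 receptor chain Il1rl1 (0.18 ± 0.03) rose slightly. Of 10 tested Toll-like and interleukin 1 receptors 2 were higher, Tlr2 and Il1rl1. Il1rap (-0.26 ± 0.06) and Il1r1 were the 2 that were lower. Within the interleukin 6 receptor family, the shared chain Il6st (-0.14 ± 0.03), Lifr (-0.19 ± 0.05) and Osmr (-0.20 ± 0.03) fell. Of 25 tested cytokine and interferon receptors 4 were higher and 7 lower.

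Integrins, the receptors of matrix proteins, were higher in 5 of 11 tested genes and lower in 3. Itgb7, the partner of integrins alpha 4 and alpha E on lymphocytes, had 6.91, 6.46 and 7.42 FPKM in betaine plus HTL, against 3.89, 3.63 and 3.58 FPKM in HTL (log2 fold change 0.75 ± 0.06, adjusted p = 6.30e-06). The abundant chains Itga5 (0.18 ± 0.03), Itgav (0.18 ± 0.03) and Itgb1 (0.09 ± 0.03) rose by little, and the leukocyte chain Itgb2 fell (-0.43 ± 0.08).

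G protein-coupled receptors were higher in 9 of 48 tested genes (18.8%, against 14.5% of all genes tested) and lower in 14 (29.2%, against 20.6%). With either rescaling 10 were higher and 11 lower. S1pr1, a receptor of sphingosine 1-phosphate, had 1.08, 1.58 and 1.43 FPKM in betaine plus HTL, against 2.54, 2.48 and 3.23 FPKM in HTL (log2 fold change -0.67 ± 0.09, adjusted p = 0.000226). Adra1d, an alpha 1 adrenergic receptor, had 1.299, 1.61 and 1.59 FPKM in betaine plus HTL and 2.43, 2.63 and 2.29 FPKM in HTL (log2 fold change -0.46 ± 0.07, adjusted p = 0.000371). Adgrl2, the adhesion receptor latrophilin 2, had 15.3, 15.4 and 14.9 FPKM in betaine plus HTL and 21.9, 21.2 and 20.9 FPKM in HTL (log2 fold change -0.46 ± 0.03, adjusted p = 2.21e-06). Lack of overlap between the groups was a condition for naming these 3 genes. Gpr137b, a lysosomal membrane protein named after G protein-coupled receptors, rose to 44.8, 44.1 and 46.9 FPKM in betaine plus HTL, against 29.4, 31.1 and 30.1 FPKM in HTL (log2 fold change 0.57 ± 0.04, adjusted p = 1.02e-06). Paqr4, a ceramidase-like relative of the adiponectin receptors, fell (-0.47 ± 0.08).

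Lipoprotein and scavenger receptors were higher in 6 of 17 tested genes and lower in 4. Vldlr, a receptor of very low-density lipoprotein and reelin, was higher (0.29 ± 0.04). Scara5, a scavenger receptor that takes up ferritin, had 2.46, 2.49 and 2.65 FPKM in betaine plus HTL and 1.26, 1.302 and 1.46 FPKM in HTL (log2 fold change 0.59 ± 0.05, adjusted p = 1.65e-05). The largest rise listed under receptors was Enpp2, which the deposited GO terms place there although its product autotaxin is a secreted enzyme that makes lysophosphatidic acid. Enpp2 had 2.45, 2.75 and 2.25 FPKM in betaine plus HTL and 0.831, 1.08 and 0.857 FPKM in HTL, a 2.69-fold ratio of means (log2 fold change 0.86 ± 0.07, adjusted p = 6.57e-06).

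**Figure D3:**
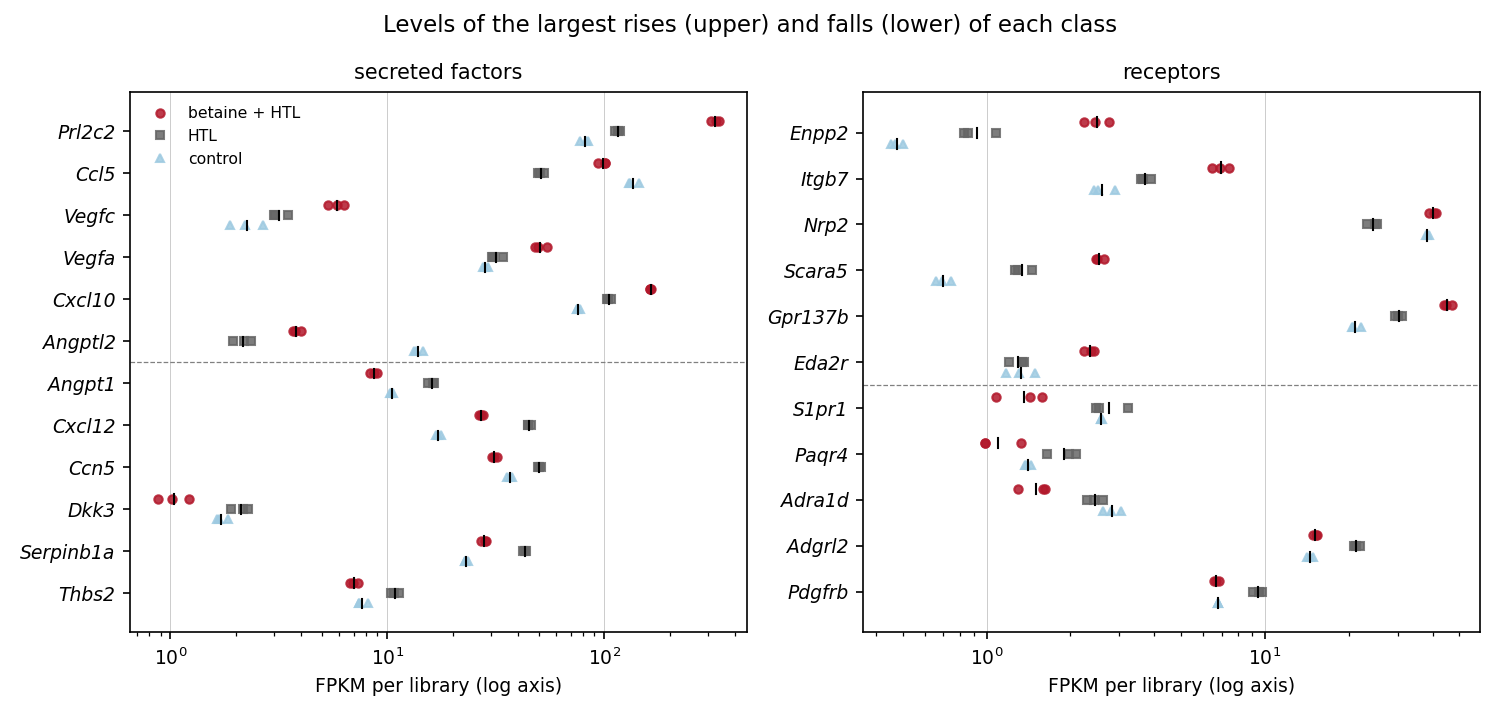
FPKM in each library (log axis) for the largest rises (above the dashed line) and falls (below it) among secreted factors and among receptors, for betaine plus HTL (red circles), HTL (grey squares) and control (light blue triangles), with black ticks at group means. Genes were drawn only where the betaine plus HTL libraries did not overlap the HTL libraries, so that separation is by choice. The place of betaine plus HTL relative to control differs from gene to gene.

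Among transporters, most amino acid carriers rose, and mitochondrial carriers and proton pump subunits leaned to falls. Of 22 tested amino acid and osmolyte carriers 13 were higher and 2 lower (68.2% called, median 0.18), against 35.1% called and a median of -0.02 over all genes tested. With either rescaling 15 were higher and 2 lower. The 50 listed genes of the family summed to 804.8, 809.9 and 809.0 FPKM in betaine plus HTL, against 727.5, 722.3 and 723.5 FPKM in HTL.

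The largest rise was in Slc7a11 (chromosome 3, 50364936 to 50499087), which encodes xCT, the exchanger that imports cystine for glutathione synthesis and releases glutamate. Slc1a4, the ASCT1 carrier of serine, alanine and cysteine, came next. The window from 250 bases before to 50 bases after a RefSeq start was read for genes with an entry, in GRCm38.p6, the build that corresponds to mm10. Both genes, on the minus strand, are shown because their windows hold the C/EBP-ATF response element TGATGNAA, in capitals, on either strand.

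Slc7a11, chr3:50443564-50443863: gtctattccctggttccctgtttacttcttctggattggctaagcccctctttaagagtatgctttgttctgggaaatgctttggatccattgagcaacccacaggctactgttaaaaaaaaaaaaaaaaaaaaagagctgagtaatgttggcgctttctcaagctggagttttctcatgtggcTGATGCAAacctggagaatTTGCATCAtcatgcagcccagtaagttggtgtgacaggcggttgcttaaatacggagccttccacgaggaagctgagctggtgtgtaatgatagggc

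Slc1a4, chr11:20332664-20332963: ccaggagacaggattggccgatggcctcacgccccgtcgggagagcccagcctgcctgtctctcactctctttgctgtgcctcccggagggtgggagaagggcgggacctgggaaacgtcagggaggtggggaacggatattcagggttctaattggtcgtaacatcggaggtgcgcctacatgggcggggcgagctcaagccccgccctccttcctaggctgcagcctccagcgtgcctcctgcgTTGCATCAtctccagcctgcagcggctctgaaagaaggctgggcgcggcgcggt

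The annotated Slc7a11 gene reaches past this RefSeq start. In its window the element lies 66 bases before the start as written and again, as its reverse complement, from 47 bases before the start, and the matches do not overlap. In Slc1a4 the reverse complement begins 4 bases before the start. The element is in 236 of 11309 windows of tested genes (2.09%) and in 1304 of all 32851 windows (3.97%). Of the 13 carriers that rose, 8 had an entry and 2 of these held the element. Of the 9 tested carriers that did not rise, 8 had an entry and 0 held it. Slc7a11 had the largest change among carriers, and Slc1a4 was chosen after its values and window were seen. A match is a description of these letters and says nothing of binding.

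Slc7a11 had 18.6, 18.4 and 18.1 FPKM in betaine plus HTL, against 11.4, 11.7 and 11.4 FPKM in HTL and 11.6, 11.4 and 10.9 FPKM in control (log2 fold change 0.63 ± 0.03, adjusted p = 2.14e-07). HTL and control overlapped, and betaine plus HTL stood above both. Slc1a4 had 12.9, 12.5 and 12.1 FPKM in betaine plus HTL, against 8.21, 8.68 and 8.5 FPKM in HTL and 15.5, 15.7 and 15.7 FPKM in control (log2 fold change 0.51 ± 0.03, adjusted p = 1.56e-06). Here betaine plus HTL lay between HTL and control. Slc6a9, the glycine transporter GLYT1, had 52.2, 53.2 and 53.4 FPKM in betaine plus HTL, against 37.6, 37.4 and 38.05 FPKM in HTL and 33.4, 33.8 and 34.6 FPKM in control (log2 fold change 0.48 ± 0.03, adjusted p = 2.14e-07).

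The glutamine carrier Slc1a5 had 14.5, 15.7 and 15.6 FPKM in betaine plus HTL, against 11.6, 11.97 and 11.6 FPKM in HTL and 30.9, 30.3 and 31.7 FPKM in control (log2 fold change 0.36 ± 0.04, adjusted p = 3.17e-05). Arginine and lysine carriers Slc7a2 (0.33 ± 0.03) and Slc7a1 (0.26 ± 0.03), the creatine carrier Slc6a8 (0.31 ± 0.03) and the glutamine carrier Slc38a1 (0.19 ± 0.03) rose. So did Slc7a5, the large neutral amino acid exchanger (0.16 ± 0.02), and Slc3a2, its heavy chain, which is also that of Slc7a11 (0.08 ± 0.02). The members that fell were Slc36a1 (-0.30 ± 0.05), a proton-coupled carrier that exports small neutral amino acids from lysosomes, and its relative Slc36a4 (-0.23 ± 0.05). Slc38a2, the starvation-inducible SNAT2, had 213, 213 and 210.3 FPKM in betaine plus HTL and 215, 215 and 216 FPKM in HTL and was not called (adjusted p = 0.445).

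Carriers of betaine itself and of other osmolytes were looked at by name. Slc6a12, the betaine and GABA carrier BGT1, reached at most 0.00835 FPKM in any library. Slc6a6, the taurine carrier, had 27.1, 28.2 and 26.7 FPKM in betaine plus HTL and 25.3, 25.8 and 26.5 FPKM in HTL, and Slc5a3, the myo-inositol carrier, had 3.94, 4.05 and 3.93 FPKM in betaine plus HTL and 3.34, 3.68 and 3.71 FPKM in HTL. Neither was called (adjusted p = 0.0604 for Slc6a6 and 0.0677 for Slc5a3), though both were called higher with either rescaling. The libraries of each did not overlap, which held for 47.7% of all genes tested. Bhmt, the betaine-homocysteine methyltransferase gene, reached at most 0.0126 FPKM in any library. Blmh, bleomycin hydrolase, which can hydrolyse HTL, was lower, at 40.7, 39.04 and 41.9 FPKM in betaine plus HTL, against 47.8, 48.2 and 48.1 FPKM in HTL and 43.1, 42.9 and 42 FPKM in control (log2 fold change -0.24 ± 0.03, adjusted p = 0.000116).

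**Figure D4:**
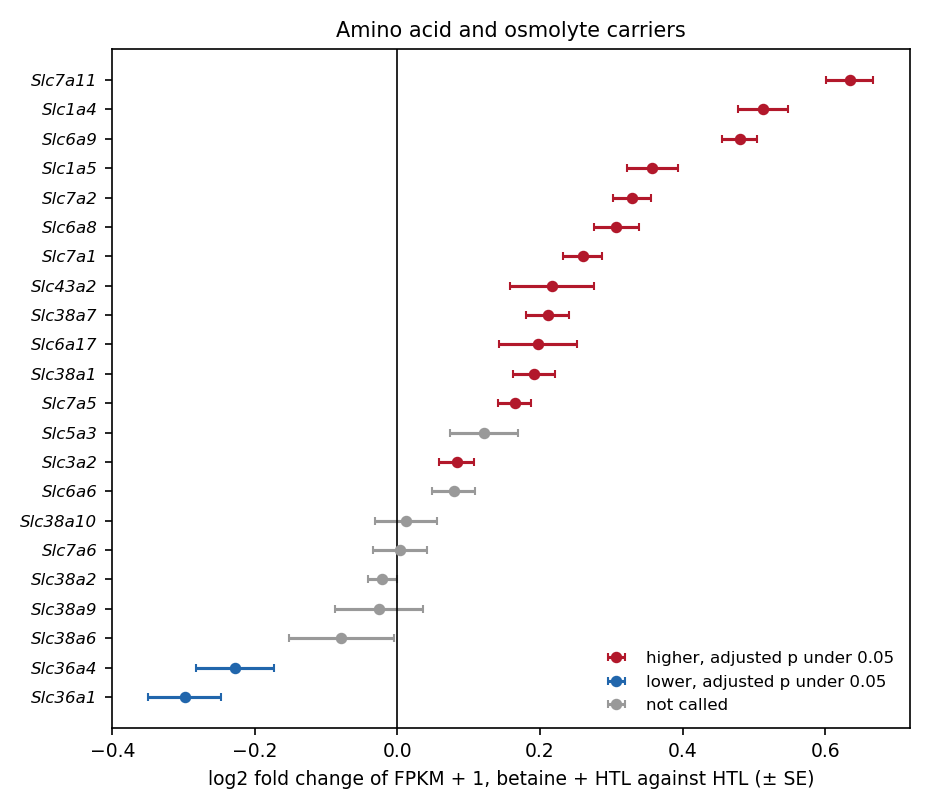
Log2 fold change of FPKM + 1 in betaine plus HTL against HTL for the 22 tested amino acid and osmolyte carriers, with the standard error of the fit as bars, in red where higher, in blue where lower and in grey where not called. From Slc7a11 at 0.63 down to Slc36a1 at -0.30, 13 carriers were higher and 2 lower.

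Other plasma membrane carriers with rises were those of folate, glucose and lactate. The folate carrier Slc19a1 had 19, 19.1 and 19.9 FPKM in betaine plus HTL, against 14.7, 15.01 and 15.1 FPKM in HTL and 18.9, 17.8 and 18.02 FPKM in control (log2 fold change 0.35 ± 0.03, adjusted p = 1.87e-05). The 8 tested nucleoside, folate and choline carriers had 4 higher and 0 lower. Slc2a1, the glucose carrier GLUT1, had 71.7, 72.4 and 73.6 FPKM in betaine plus HTL, against 58.2, 55.8 and 54.98 FPKM in HTL (log2 fold change 0.36 ± 0.03, adjusted p = 3.75e-06), and it was the 1 called gene of 9 glucose and sodium-coupled carriers. Monocarboxylate carriers were higher in 3 of 5 tested genes, with Slc16a9, a carnitine carrier, at 0.31 ± 0.05 and the lactate exporter Slc16a3 at 0.29 ± 0.09, whose libraries overlapped.

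ABC transporters were higher in 7 of 20 tested genes and lower in 5. Abcc1, the MRP1 pump that exports glutathione conjugates, had 39.6, 39.02 and 41 FPKM in betaine plus HTL, against 29.5, 29.9 and 30.02 FPKM in HTL and 37.2, 37.7 and 37.8 FPKM in control (log2 fold change 0.41 ± 0.03, adjusted p = 1.10e-06). Its relatives Abcc4 (0.33 ± 0.03) and Abcc5 (0.19 ± 0.05) rose. The cholesterol exporter Abca1 (-0.35 ± 0.06), the drug pump Abcg2 (-0.25 ± 0.05) and the peroxisomal fatty acid carrier Abcd2, with 0.944, 0.903 and 0.779 FPKM in betaine plus HTL and 1.598, 1.47 and 1.67 FPKM in HTL, fell.

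Mitochondrial carriers were lower in 14 of 42 tested genes (33.3%, against 20.6% of all genes tested) and higher in 5 (11.9%, against 14.5%). Their median was -0.09. Slc25a1 (chromosome 16, 17925211 to 17928219), the citrate exporter that feeds fatty acid and sterol synthesis, had 21.4, 21.7 and 20.9 FPKM in betaine plus HTL, against 31.5, 31.2 and 31.6 FPKM in HTL and 46.3, 49.2 and 44.9 FPKM in control (log2 fold change -0.54 ± 0.03, adjusted p = 9.53e-07). Ucp2, an uncoupling protein, had 51.8, 51.98 and 52.7 FPKM in betaine plus HTL, against 79.3, 73.5 and 72.3 FPKM in HTL and 77.01, 72.3 and 74.6 FPKM in control (log2 fold change -0.52 ± 0.04, adjusted p = 1.81e-06). HTL and control overlapped for Ucp2 and both stood above betaine plus HTL. The oxoglutarate carrier Slc25a11 (-0.34 ± 0.03), the dicarboxylate carrier Slc25a10 (-0.33 ± 0.04) and the acylcarnitine carrier Slc25a20 (-0.30 ± 0.04) fell, and the iron carrier Slc25a37 rose (0.35 ± 0.05). Slc25a35, with 0.542, 0.517 and 0.377 FPKM in betaine plus HTL and 1.29, 0.873 and 0.856 FPKM in HTL, also fell.

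The V-type proton pump acidifies lysosomes and other vesicles. Its subunits were lower in 7 of 18 tested genes (38.9%, against 20.6% of all genes tested) and higher in 0, with a median of -0.08. With either rescaling 5 were lower. Atp6v1a, the catalytic subunit, had 45.7, 45.3 and 42.2 FPKM in betaine plus HTL and 50.5, 51.2 and 50.4 FPKM in HTL (log2 fold change -0.19 ± 0.03, adjusted p = 0.000973). Atp6v0c, the proteolipid of the rotor ring, had 92.2, 89.3 and 91.02 FPKM in betaine plus HTL and 107, 100.2 and 101 FPKM in HTL (log2 fold change -0.18 ± 0.03, adjusted p = 0.00162). Metal carriers were lower in 8 of 24 tested genes (33.3%, against 20.6% of all genes tested) and higher in 4 (16.7%, against 14.5%). The zinc importers Slc39a10 (-0.25 ± 0.04) and Slc39a14 (-0.21 ± 0.04) were among those that fell. With rescaling only 5 or 4 of the metal carriers were lower.

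The remaining largest changes among transporters were single genes. Aqp5, a water channel of secretory epithelia, had 17.96, 16.6 and 18.9 FPKM in betaine plus HTL, against 24.8, 25.4 and 24.6 FPKM in HTL and 32.6, 32.4 and 32.9 FPKM in control (log2 fold change -0.46 ± 0.04, adjusted p = 1.13e-05). Sv2a, a synaptic vesicle protein, fell (-0.41 ± 0.05), and Tmem266, a voltage sensor protein, rose (0.40 ± 0.08). Apol10b, an apolipoprotein L family gene that the deposited GO terms place with transporters, had 4.34, 4.38 and 3.87 FPKM in betaine plus HTL, against 2.22, 2.53 and 2.34 FPKM in HTL and 2.22, 2.47 and 2.37 FPKM in control (log2 fold change 0.63 ± 0.06, adjusted p = 1.60e-05). Its window and that of the chemokine gene Cxcl10 (both minus strand, GRCm38.p6) are shown because they hold the interferon-stimulated response element, spelled GAAA, any 2 bases, then GAAA, in capitals, on either strand.

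Apol10b, chr15:77596076-77596375: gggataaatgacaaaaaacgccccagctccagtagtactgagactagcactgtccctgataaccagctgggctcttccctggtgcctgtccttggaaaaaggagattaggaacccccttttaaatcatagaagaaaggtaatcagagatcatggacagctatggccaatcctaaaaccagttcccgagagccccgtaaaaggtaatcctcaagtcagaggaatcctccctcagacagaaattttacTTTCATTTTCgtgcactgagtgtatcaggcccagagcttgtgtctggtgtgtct

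Cxcl10, chr5:92348840-92349139: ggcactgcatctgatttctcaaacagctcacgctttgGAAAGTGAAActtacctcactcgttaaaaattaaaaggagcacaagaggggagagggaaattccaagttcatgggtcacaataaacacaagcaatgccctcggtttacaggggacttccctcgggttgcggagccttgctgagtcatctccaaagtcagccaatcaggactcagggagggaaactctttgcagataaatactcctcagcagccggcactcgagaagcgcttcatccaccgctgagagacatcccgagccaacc

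The element begins 4 bases before the start in Apol10b, as its reverse complement, and 213 bases before it in Cxcl10. It is in 331 of 11309 windows of tested genes (2.93%) and in 1131 of all 32851 windows (3.44%). No capital stretch overlaps another. Apol10b was among the largest changes, and Cxcl10 was chosen after its values and window were seen. The window of Hlf, a transcription factor with a large fall described below, held neither element.

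**Figure D5:**
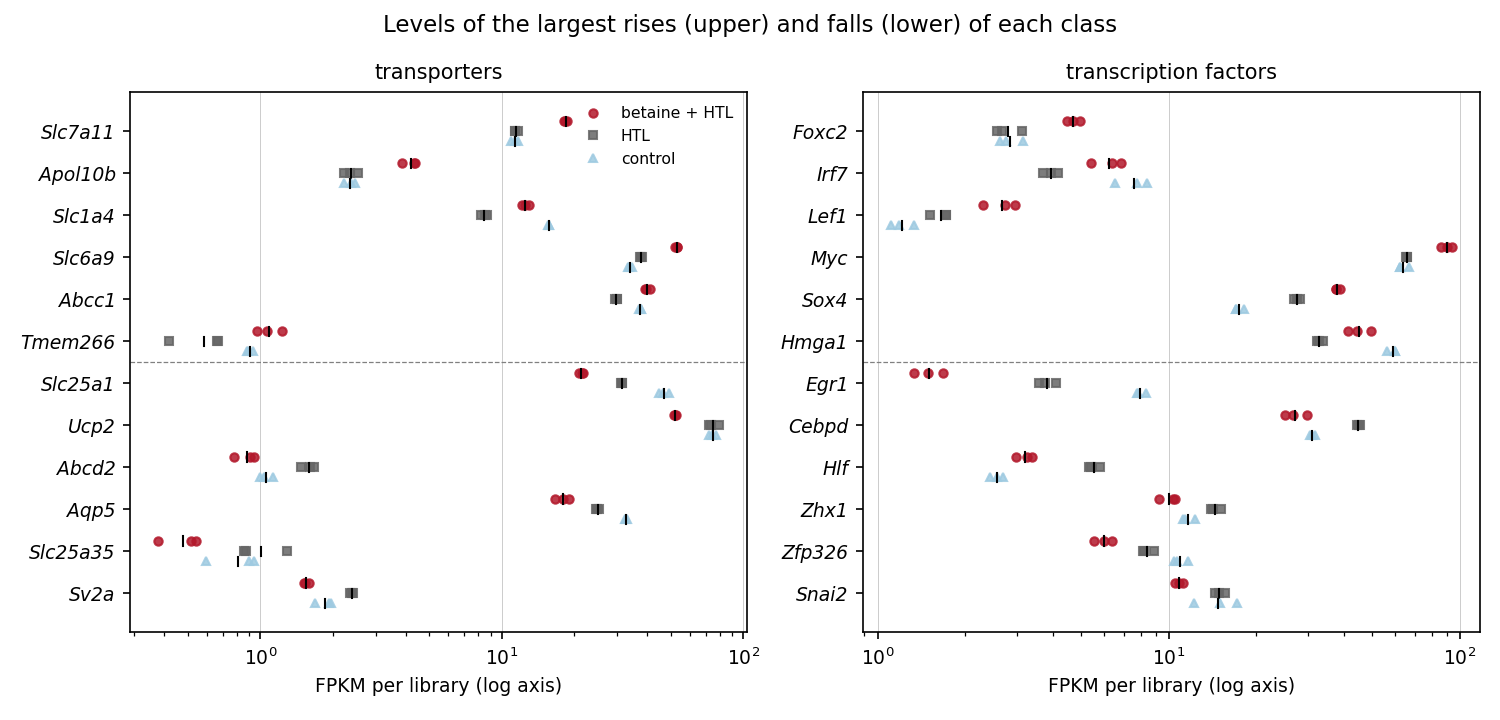
FPKM in each library (log axis) for the 6 largest rises (above the dashed line) and 6 largest falls (below it) among transporters and among transcription factors, for betaine plus HTL (red circles), HTL (grey squares) and control (light blue triangles), with black ticks at group means. The 24 genes were drawn only where the betaine plus HTL libraries did not overlap the HTL libraries, so that separation is by choice. Egr1 and Slc25a1 show 3 separate levels with betaine plus HTL the lowest.

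Among transcription factors, interferon regulatory factors and SMAD and related factors leaned to rises. Some NF-kB and NFAT factors rose, though the median of that family was 0.0. Egr1, Cebpd and the proline and acid-rich factors Hlf, Dbp and Tef fell. The IRF and STAT family, which drives interferon-stimulated genes, was higher in 6 of 11 tested genes and lower in 1. Irf7, its amplifier, had 5.398, 6.37 and 6.86 FPKM in betaine plus HTL, against 3.696, 4.15 and 3.93 FPKM in HTL and 7.79, 6.51 and 8.38 FPKM in control (log2 fold change 0.55 ± 0.09, adjusted p = 0.000797). Irf1 had 52.1, 53.5 and 52.2 FPKM in betaine plus HTL and 43.7, 45.1 and 43.3 FPKM in HTL (log2 fold change 0.25 ± 0.03, adjusted p = 5.42e-05). Stat2 (0.23 ± 0.05) and Irf9 (0.18 ± 0.04), which form the complex that binds interferon-stimulated elements, rose by less. Stat3, the factor downstream of Il6st, was the member that fell (-0.21 ± 0.03).

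Of 9 tested NF-kB and NFAT factors 4 were higher and 0 lower, with a median of 0.0. The largest of these rises was in Nfatc1 (0.39 ± 0.05), an NFAT factor and not an NF-kB subunit. Relb (0.25 ± 0.04), Nfkb2 (0.17 ± 0.04) and Rela (0.14 ± 0.03) rose, and Nfkb1 was not called (-0.04 ± 0.02, adjusted p = 0.237). SMAD, TEAD, RUNX and related factors were higher in 9 of 24 tested genes (37.5%, against 14.5% of all genes tested) and lower in 0, with a median of 0.10. Smad1, a factor of BMP signalling, had 17.2, 17.8 and 17.6 FPKM in betaine plus HTL and 13.6, 13.6 and 14.5 FPKM in HTL (log2 fold change 0.31 ± 0.04, adjusted p = 0.000149). The inhibitory Smad7 (0.30 ± 0.06), the common partner Smad4 (0.21 ± 0.03) and the bone factor Runx2 (0.21 ± 0.06) rose as well. Id1, a target of BMP signalling, fell to 29.2, 25.7 and 27.3 FPKM in betaine plus HTL, against 37.02, 35.6 and 38.5 FPKM in HTL (log2 fold change -0.42 ± 0.05, adjusted p = 9.25e-05).

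Foxc2, a forkhead factor of mesenchyme and lymphatic vessels, gave the largest rise among the listed transcription factors. It had 4.47, 4.68 and 4.96 FPKM in betaine plus HTL, against 2.58, 3.12 and 2.67 FPKM in HTL and 3.16, 2.62 and 2.76 FPKM in control (log2 fold change 0.59 ± 0.07, adjusted p = 8.81e-05). Lef1, the nuclear partner of beta-catenin, had 2.302, 2.97 and 2.73 FPKM in betaine plus HTL and 1.51, 1.72 and 1.71 FPKM in HTL (log2 fold change 0.47 ± 0.07, adjusted p = 0.000647). Myc, a driver of growth and ribosome synthesis, had 86.1, 90.2 and 93.7 FPKM in betaine plus HTL, against 65.8, 65.1 and 65.97 FPKM in HTL and 66.8, 62.2 and 62.1 FPKM in control (log2 fold change 0.45 ± 0.04, adjusted p = 5.77e-06). For Foxc2 and Myc the HTL and control libraries overlapped and the betaine plus HTL libraries stood above them.

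Sox4, a factor of progenitor cells, had 37.4, 37.5 and 38.8 FPKM in betaine plus HTL, against 26.8, 27.6 and 28.2 FPKM in HTL and 18.1, 17.1 and 17.04 FPKM in control (log2 fold change 0.45 ± 0.03, adjusted p = 3.25e-06). Hmga1, a chromatin architecture factor, had 41.2, 44.3 and 49.5 FPKM in betaine plus HTL, against 32.2, 33.8 and 32.7 FPKM in HTL and 59.98, 59.7 and 56.4 FPKM in control (log2 fold change 0.44 ± 0.05, adjusted p = 0.000144). Sox4 thus stood highest and Hmga1 between the other groups. Among KLF and SP factors 6 of 15 were higher and 2 lower, with Klf9 at 0.44 ± 0.05 and Klf4 at 0.30 ± 0.04. AP-1 factors were higher in 3 of 7 tested genes, namely Fosl1 (0.30 ± 0.05), Fosl2 (0.29 ± 0.03) and Junb (0.17 ± 0.05), and lower in 1, Batf3.

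The largest fall was in Egr1, an immediate early factor induced by growth factor and MAP kinase signals. Egr1 had 1.48, 1.33 and 1.67 FPKM in betaine plus HTL, against 4.09, 3.58 and 3.74 FPKM in HTL and 8.34, 7.83 and 7.76 FPKM in control, a ratio of means of 0.393 between betaine plus HTL and HTL (log2 fold change -0.95 ± 0.06, adjusted p = 1.05e-06). Cebpd, an acute-phase factor, had 25.2, 26.7 and 29.8 FPKM in betaine plus HTL, against 44.2, 44.9 and 45.2 FPKM in HTL and 31.8, 31.1 and 30.5 FPKM in control (log2 fold change -0.70 ± 0.05, adjusted p = 1.72e-06). Zhx1 (-0.48 ± 0.05), a zinc finger and homeobox repressor, Zfp326 (-0.44 ± 0.06) and Snai2 (-0.43 ± 0.09), a repressor of epithelial genes, completed the 6 largest falls.

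Hlf, Dbp and Tef, closely related factors that bind as dimers and cycle with the circadian clock in tissues, fell together. Hlf had 3.26, 2.98 and 3.396 FPKM in betaine plus HTL, against 5.39, 5.33 and 5.81 FPKM in HTL and 2.56, 2.43 and 2.701 FPKM in control (log2 fold change -0.63 ± 0.05, adjusted p = 1.02e-05). Dbp had 2.53, 2.497 and 2.31 FPKM in betaine plus HTL and 3.57, 3.76 and 3.23 FPKM in HTL (log2 fold change -0.39 ± 0.06, adjusted p = 0.000389). Tef changed by -0.15 ± 0.04, and the trio was picked out after its values were seen. Nr1d1, a clock repressor, was higher (0.23 ± 0.06).

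ATF and C/EBP factors of the stress response went both ways, with 4 of 25 tested genes higher and 8 lower. Atf4 had 590.0, 619 and 586 FPKM in betaine plus HTL, against 526, 514 and 516 FPKM in HTL and 504, 492 and 492 FPKM in control (log2 fold change 0.21 ± 0.03, adjusted p = 0.000168). Its relative Atf5 (0.25 ± 0.04) and the C/EBP partners Cebpb (0.20 ± 0.05) and Cebpg (0.10 ± 0.03) rose. Ddit3, which encodes the stress factor CHOP, had 12.4, 10.8 and 12.1 FPKM in betaine plus HTL, against 15.7, 15.6 and 15.2 FPKM in HTL (log2 fold change -0.37 ± 0.05, adjusted p = 0.000386). Xbp1 (-0.24 ± 0.05) and Creb3 (-0.24 ± 0.04), factors of endoplasmic reticulum and Golgi stress, fell too. ATF4 is regulated mainly at translation, which these libraries do not measure.

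The sterol and redox regulators were read by name. Srebf2, the main driver of sterol synthesis, had 44.7, 45.2 and 45.6 FPKM in betaine plus HTL, against 54.6, 54.3 and 53.6 FPKM in HTL and 88.2, 88.2 and 86.2 FPKM in control (log2 fold change -0.26 ± 0.02, adjusted p = 1.36e-05). Srebf1, the driver of fatty acid synthesis, had 21.5, 21.2 and 23.1 FPKM in betaine plus HTL and 26.8, 26.1 and 25.4 FPKM in HTL (log2 fold change -0.24 ± 0.04, adjusted p = 0.000499). Nfe2l2, the NRF2 gene, had 58.4, 59.5 and 55.96 FPKM in betaine plus HTL and 53.5, 55.4 and 52.8 FPKM in HTL. It was not called (adjusted p = 0.06), and its groups did not overlap, like those of 47.7% of all genes tested.

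HTL against control shares the HTL libraries with the comparison above, so an HTL library that is high by chance lowers one fold change and raises the other, and the values are only set side by side. In HTL against control 6657 of the 11035 genes (60.3%) were called. For Ccl5 the log2 fold changes were 0.94 for betaine plus HTL against HTL and -1.39 for HTL against control, and for Nrp2 they were 0.69 and -0.63. Cxcl12 had -0.71 and 1.33, and Cebpd -0.70 and 0.51, in that order. Other genes had the same sign in both, such as Egr1 with -0.95 and -0.90, Slc25a1 with -0.54 and -0.56, and Cxcl10 with 0.64 and 0.46. Still others were called for betaine plus HTL against HTL and not for HTL against control, such as Slc7a11 with 0.63 and 0.02, Myc with 0.45 and 0.04, and Stc2 with 0.54 and 0.00, a difference between the comparisons that was not tested.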

How the data were processed

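RNA-seq of HT-22 cells was analysed in 9 libraries. The authors deposited one FPKM value for each gene in each library, per the file headers. The tools named per the submitters' processing notes were fastp, HISAT2, HTSeq and R 3.2.0, and the build mm10. The sources used here do not give their roles, how mRNA was selected or whether counting used strand, so antisense and overlapping genes are uncertain. Whole reads were recovered from the FPKM steps for 21352 of 21352 genes (tolerance 0.05 reads) and gave the depths, which were 99.97% of the scaling total. Lengths were chosen to give whole reads, so this is a weak check. Replicates differed beyond counting noise, so each counted once.

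FPKM are not counts, so limma 3.58.1 (R 4.3.3) was run on log2(FPKM + 1) with group means, an intensity trend, all 9 libraries (6 residual degrees of freedom) and Benjamini-Hochberg adjustment over 11035 genes. An exact permutation test of 3 against 3 libraries cannot go below 0.1. The fit was tested on simulated data, with 50 genes changed at each size. It recovered 36% of changes of 1.25-fold and 94% of those of 1.5-fold. Of 11010 genes tested there, 13 unchanged ones were called. A gene that was not called may thus still have changed by a small amount.

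Classes were taken from the deposited GO terms and from symbol patterns in 61 families, with 37 mismatched symbols removed. GO terms bring in some genes whose main role is another, and a gene may be in several classes. Members and lists were chosen with earlier results of these data known. Genes were named by rule: per class the 6 largest rises and falls with non-overlapping libraries and a higher group of 1 FPKM or more, the largest rise and fall of each family with at least 4 tested members, and 12 genes of betaine, HTL and stress biology. Slc6a20a, among the 12, was not analysed here. Some genes are not reported here. Others were chosen after their values were seen. Positions (GRCm38.p6) and promoter windows are from RefSeq. A window was found for 1204 of 1546 tested class members. Alternatives changed the pseudocount, filter, scaling, samples, replicate block and class membership.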

Additional observations from a re-analysis of the deposited data

How the results depend on the processing

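Of 128 named genes tested, 114 kept their call under every alternative run. Of their 2001 alternative values 1922 kept direction and side of the threshold, 66 lost the threshold, 13 gained it and 0 reversed. Leaving out 1 library gave 3055 to 3853 genes called (1275 to 1580 higher, 1741 to 2273 lower), 88 to 102 secreted factors, 90 to 105 receptors, 113 to 143 transporters and 174 to 226 transcription factors. The class medians, all near 0, ran over these fits between -0.019 and 0.024, -0.006 and 0.019, -0.021 and 0.001, and -0.007 and 0.016, so none has a settled sign. The lowest secreted factor median came without betaine plus HTL replicate 3. After quantile normalization and with size factors, the median of all genes was 0.0 and 0.002 (-0.006 with no filter on low values), of receptors 0.033 and 0.033, of transporters 0.015 and 0.017, and of transcription factors 0.033 and 0.03. A filter at 5 FPKM left 65 secreted factors called, 29 of them lower, and 59 transcription factors lower (median 0.02), since fewer genes were tested. By GO terms alone, which leave fewer members, 56 secreted factors were called (32 higher, 24 lower), 37 receptors were higher, 46 transporters were lower and the transporter median was 0.012. Same-numbered libraries deviated together with correlations of 0.060, 0.064 and 0.007, against -0.079 to 0.015 for libraries of different number. These values show no strong pairing by number, but so few of them cannot exclude a weak one. With the replicate block 3688 genes were called, 1494 higher and 2194 lower. A pseudocount of 0.1 gave log2 fold changes more than 1.5 times as large for low genes, such as 1.34 for Enpp2, -0.97 for Dkk3, -0.84 for Il33, -0.92 for Slc25a35, -0.79 for Abcd2, 0.82 for Tmem266, -0.74 for Paqr4 and -0.73 for Nrp1. The FPKM scale and the recovered depths limit precision most for such low genes.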

Other observations

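Among genes outside the 4 classes, chosen after their values were seen, Ptgs2, which encodes the inducible cyclooxygenase COX-2, had 61.6, 62.2 and 59.7 FPKM in betaine plus HTL, against 26.4, 26.98 and 27.2 FPKM in HTL and 35.3, 33.4 and 34.2 FPKM in control (log2 fold change 1.16 ± 0.03, adjusted p = 1.00e-09). Acta2, smooth muscle actin, had 42.6, 45.3 and 42.8 FPKM in betaine plus HTL, against 20.9, 19.3 and 20.1 FPKM in HTL and 19.8, 19.7 and 19.3 FPKM in control (log2 fold change 1.08 ± 0.04, adjusted p = 7.04e-09). Both rose at least 2-fold on the log2(FPKM + 1) scale, and for both the betaine plus HTL and HTL libraries did not overlap. Car6, a secreted carbonic anhydrase of saliva, had 0.1301, 0.06103 and 0.4602 FPKM in betaine plus HTL, against 1.83, 2.04 and 1.75 FPKM in HTL and 0.281, 0.126 and 0.0555 FPKM in control (log2 fold change -1.25 ± 0.11, adjusted p = 1.47e-05). The betaine plus HTL and control libraries of Car6 overlapped, both far below the HTL libraries, and at these levels few reads stand behind each value.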
